A study of Homo sapiens with 5 samples.

Results

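Transcripts of wild-type H9 human embryonic stem cells grown in 5iLAF medium were compared with those of wild-type H9 cells grown in basal medium. H9 is an established line of human embryonic stem cells. Each condition was sequenced as 1 library, here called WT 5iLAF and WT basal, out of 5 libraries in the series. The other libraries were WT cells in 2iLAF and B3GALT5-knockout (B3GALT5-KO) cells in basal medium and in 2iLAF, and they are given beside a result where they help to place it. The submitters label WT basal as primed and WT 5iLAF as naive. The labels name the media without listing their components. How long the cells were kept in each, and whether on feeder cells, is not given in the sources used here. Genes entered when they reached 1 TPM in either library (TPM is transcript abundance per unit of length, scaled to a fixed total). That left 14874 of 26506 genes. Each gene was compared as the log2 ratio of WT 5iLAF TPM + 1 to WT basal TPM + 1, and a gene is called higher or lower where this log2 ratio reached 1 in size. With 1 library per condition there is no replicate check and no test, so every value describes these libraries, and differences carry no error. Pairs of values are given as WT 5iLAF against WT basal.

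Human pluripotent cells can be held in different states. Primed cells resemble the epiblast after implantation and depend on FGF and activin signals, whereas naive cells resemble the epiblast before implantation. 5iLAF, in its published form, joins inhibitors of the kinases MEK, GSK3, BRAF, SRC and ROCK with the cytokine LIF, activin A and, in many versions, FGF2. MEK acts in the chain that carries FGF signals to ERK, GSK3 marks beta-catenin for destruction and so restrains WNT signalling, activin works through SMAD2 and SMAD3, and LIF works through STAT3. NODAL, WNT and BMP signals together also pattern the primitive streak, the site where epiblast cells of the embryo leave the epithelium and form mesoderm and endoderm.

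Higher and lower genes were nearly equal in number but not in abundance. The size rule took 1694 genes as higher (11.4% of those tested) and 1793 as lower (12.1%), and these shares are the background for every list. Members and lists were chosen with earlier results of these data known, so their counts describe the members and do not test a list against that background. A gene near 0 in WT basal entered only if it reached 1 TPM in WT 5iLAF, and the reverse, so counts over the members that entered do not speak for whole lists. The median log2 ratio over all tested genes was -0.08, with quartiles of -0.53 and 0.40. A log2 ratio of 3 or more was reached by 269 genes, and -3 or less by 142. The higher genes made up 13.2% of all TPM in WT 5iLAF and 3.46% in WT basal, while the lower genes made up 1.86% and 6.2%. Most genes were expressed in both media, with 12777 at 1 TPM or more in both libraries, 995 in WT 5iLAF alone and 1102 in WT basal alone. Among the 10 most abundant genes of each library 6 were shared. TMSB10 and TMSB4X, the actin-binding thymosins, stood at 7574 against 2730.4 TPM and 7709 against 3778 TPM. FTH1, the ferritin heavy chain, stood at 5379.6 against 1712 TPM, and ACTB, cytoplasmic actin, at 8834 against 5547 TPM. GAPDH, abundant in both, was at 5029.7 against 6444 TPM.

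**Figure D1:**
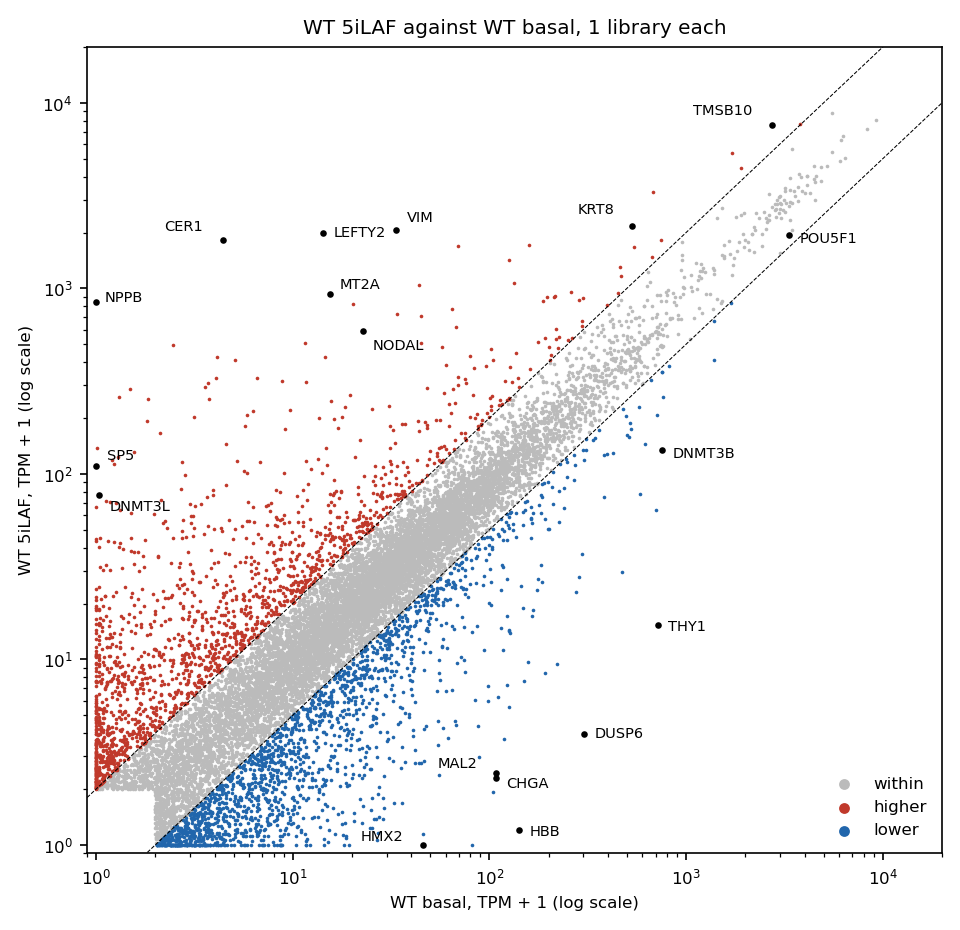
Tested genes by WT basal TPM + 1 (horizontal) and WT 5iLAF TPM + 1 (vertical), both on log scales, with 1 library on each axis. Red points are higher and blue points lower by the size rule, whose bounds are the dashed lines, and a gene such as NPPB at the left edge is listed at 0 in WT basal.

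Low genes passed the size rule more often than abundant ones. Of the 3858 genes whose mean of both libraries was under 5 TPM, 16.4% were higher and 21.7% lower. Of the 1595 genes at a mean of 100 TPM or more, 8.78% were higher and 4.7% lower. Read depth is unknown, because the deposited table holds no counts, so the error of low values cannot be given. Just inside the size rule lay ZFPM2 at 1.2 against 0.1 TPM and ABCA11P at 5.49 against 11.98 TPM, and just outside it lay TOE1 at 24.9 against 11.95 TPM and ZNF101 at 9.7 against 20.4 TPM. At the 1 TPM limit, ARL9 entered with 1 TPM in WT basal, and CD247 with 0.99 TPM did not.

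The labelled naive state was checked first against a list of 36 naive markers. Of these, 22 reached 1 TPM, 14 as higher and 0 as lower genes, and the median ratio was 1.88. DNMT3L, a cofactor of DNA methyltransferases, stood at 76.4 against 0.04 TPM. KLF2, a Krueppel-like factor of naive cells, stood at 14.8 against 0.04 TPM, TFAP2C, an AP-2 factor, at 55.2 against 3.72 TPM, and TBX3, a T-box factor, at 9.61 against 0.03 TPM. The other 14 markers stayed under 1 TPM in both libraries, and without the filter the median of the list was 0.41. Those 14 included KLF17 at 0.12 against 0.02 TPM, DPPA5 at 0.2 against 0.54 TPM, ARGFX at 0.05 against 0.04 TPM, KHDC3L at 0.25 against 0.07 TPM and ESRRB at 0.04 against 0.5 TPM, which were named after their values were seen. ZFP42, present in naive and primed cells, was at 83.9 against 102 TPM, ST6GAL1, a sialyltransferase, at 100.02 against 92.8 TPM, and DPPA3, also named after its values were seen, at 4.1 against 2.15 TPM. TFCP2L1, a factor of naive cells downstream of LIF, did not differ by the size rule at 2.62 against 2.77 TPM. The WT 5iLAF library therefore held part of the naive list well above WT basal, while several of its most specific members were near 0. The higher members include NODAL, FGF4, TBX3, IL6ST, IL6R, KLF4 and KLF5. These are also on the NODAL, FGF, BMP or LIF lists below, so the counts are not separate.

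Primed markers were split. All 34 entered, with 17 lower and 10 higher and a median of -1.07. THY1, the surface protein CD90, stood at 14.3 against 716 TPM, and HMX2, a homeobox factor, was listed at 0 against 44.95 TPM. USP44, a deubiquitinase, stood at 4.53 against 124 TPM, SLC7A3, an arginine and lysine transporter, at 6.62 against 148 TPM, and GRHL2, a factor of epithelial identity, at 0.09 against 17.7 TPM. CD24 was at 412 against 1382 TPM. The 10 higher members were led by LEFTY2 at 1985 against 13.2 TPM, VIM (vimentin, an intermediate filament of mesenchyme) at 2065 against 32.5 TPM, and FST (follistatin, which binds activin) at 179 against 4.73 TPM. They also included CDH2, N-cadherin, at 186 against 36.1 TPM and PLA2G16, a phospholipase, at 181 against 30.1 TPM.

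The core pluripotency list of 22 genes had a median of -0.56, with 8 lower and 3 higher. POU5F1, the central factor of pluripotency, stayed among the abundant transcripts at 1944 against 3350.3 TPM, and LIN28A, which blocks let-7 maturation, at 377 against 632 TPM. NANOG, named after its values were seen, was at 124 against 171 TPM, a log2 ratio of -0.47, and SOX2 was at 65.6 against 161 TPM, a log2 ratio of -1.28. The lower members were FOXD3 at 0.29 against 8.74 TPM, TERT (telomerase reverse transcriptase) at 0.6 against 9.8 TPM, UTF1 at 0.11 against 5.08 TPM, ZSCAN10 at 44 against 162 TPM, L1TD1 at 160.04 against 499 TPM and DPPA4 at 319.8 against 658 TPM, with SOX2 and DNMT3B. DNMT3B, a de novo DNA methyltransferase, was at 133 against 754 TPM. Among the higher members were GDF3, a NODAL-related ligand, at 136 against 13.8 TPM, and PRDM14 at 57.2 against 23.8 TPM.

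Among feedback genes induced by ERK, the ETS factors were lower in WT 5iLAF, the sprouty and SPRED genes lower or within the size rule, and the DUSP phosphatases mixed. Immediate-early genes held more higher than lower members. ERK induces its own brakes: DUSP phosphatases, which dephosphorylate it, sprouty and SPRED proteins, which act upstream, and the ETS factors ETV1, ETV4 and ETV5. DUSP6, the ERK-specific phosphatase, stood at 303 TPM in WT basal and 369.9 in B3GALT5-KO basal, and at 2.98 in WT 5iLAF, 4.66 in B3GALT5-KO 2iLAF and 1.24 in WT 2iLAF. Both basal libraries were high and the other 3 low. DUSP6 was among the lowest ratios ranked, so WT basal and WT 5iLAF are far apart by choice. How many genes share this order over the libraries was not counted. The 3 ETS factors were lower, ETV4 at 7.44 against 190.4 TPM, ETV5 at 1.78 against 42.6 TPM and ETV1 at 2.26 against 40.7 TPM. Of 7 sprouty and SPRED genes 4 were lower and 0 higher, with SPRY4 at 6.17 against 97.05 TPM, SPRY1 at 5.46 against 28.5 TPM and SPRED1 at 7.65 against 19.8 TPM. SPRY2 at 57.8 against 60.7 TPM and SPRED2 at 15.7 against 16.3 TPM lay within the size rule. The 8 DUSP genes held 3 lower and 2 higher members, the lower ones being DUSP6, DUSP5 at 20.2 against 54.1 TPM and DUSP2 at 0.73 against 7.08 TPM. DUSP10 at 20.6 against 0.5 TPM, which acts on p38 and JNK, and DUSP1 at 29.2 against 7.47 TPM were the higher ones. Of 18 immediate-early genes 16 entered, with 6 higher and 1 lower. JUN, an AP-1 subunit, stood at 69.3 against 4.92 TPM, FOSL2 at 18.4 against 1.75 TPM, JUNB at 31.9 against 5.13 TPM and ATF3 at 61.7 against 14.4 TPM. FOS at 10.2 against 9.64 TPM, EGR1 at 7.4 against 5.28 TPM and MYC at 54.8 against 72.7 TPM did not pass, and IER2 was the lower member at 56.1 against 162 TPM.

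FGF genes differed from each other more than FGF receptor genes did. Of 18 FGF genes, not all of them ligands of these receptors, 12 entered, with 6 higher and 2 lower. FGF17, FGF8 and FGF4, which are active in the streak or the early epiblast, stood at 122 against 0.29 TPM, 115 against 1.73 TPM and 41.2 against 0.33 TPM. FGF18 was at 9.9 against 1.1 TPM and FGF10 at 4.24 TPM against a listed 0. FGF2, the ligand that supports primed culture, did not differ by the size rule at 18.4 against 19.5 TPM, nor did FGF13 at 72.99 against 66.02 TPM and FGF19 at 36.4 against 23.7 TPM. Of the 5 receptor genes that entered, FGFR3 was higher at 40.7 against 8.1 TPM, and FGFR1, the most abundant, was at 139.9 against 174 TPM.

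NODAL signalling genes were among those with the largest differences, both ligand and inhibitors. NODAL signals through activin receptors and SMAD2 and SMAD3 with TDGF1 (CRIPTO) as co-receptor, and it induces its own inhibitors LEFTY1, LEFTY2 and CER1. NODAL stood at 21.7 TPM in WT basal, 586 in WT 5iLAF, 0.18 in WT 2iLAF, 15.7 in B3GALT5-KO basal and 406 in B3GALT5-KO 2iLAF. WT 5iLAF and B3GALT5-KO 2iLAF were high, both basal libraries intermediate and WT 2iLAF lowest. Of 9 ligands 7 were higher and 2 lower, at a median of 3.17. INHBA, the activin A subunit, stood at 15.5 TPM against a listed 0, TGFB1 at 68.5 against 6.72 TPM and TGFB3 at 12.8 against 0.32 TPM, while INHBE was lower at 2.28 against 17.6 TPM. Of 8 inhibitors 6 were higher and 0 lower. CER1, a secreted antagonist of NODAL, BMP and WNT, stood at 1832 against 3.41 TPM, LEFTY2 at 1985 against 13.2 TPM and LEFTY1 at 332 against 67.8 TPM. Together the inhibitors summed to 4424 against 144 TPM, and the ligands to 828 against 62.8. Receptors and transducers were mostly within the size rule. TDGF1 was at 359 against 519.5 TPM, ACVR2B at 11.1 against 17.6 TPM, SMAD2 at 12.3 against 11.7 TPM and FOXH1, the DNA-binding partner of SMADs, at 102 against 76.4 TPM. CFC1, a CRIPTO-related co-receptor, at 10.1 TPM against a listed 0 and SMAD3 at 37.5 against 12.5 TPM were the higher ones. Of 8 targets 7 were higher and 0 lower. MIXL1 stood at 292 against 2.59 TPM, EOMES at 70.2 against 0.12 TPM and GSC at 20.8 against 0.11 TPM.

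**Figure D2:**
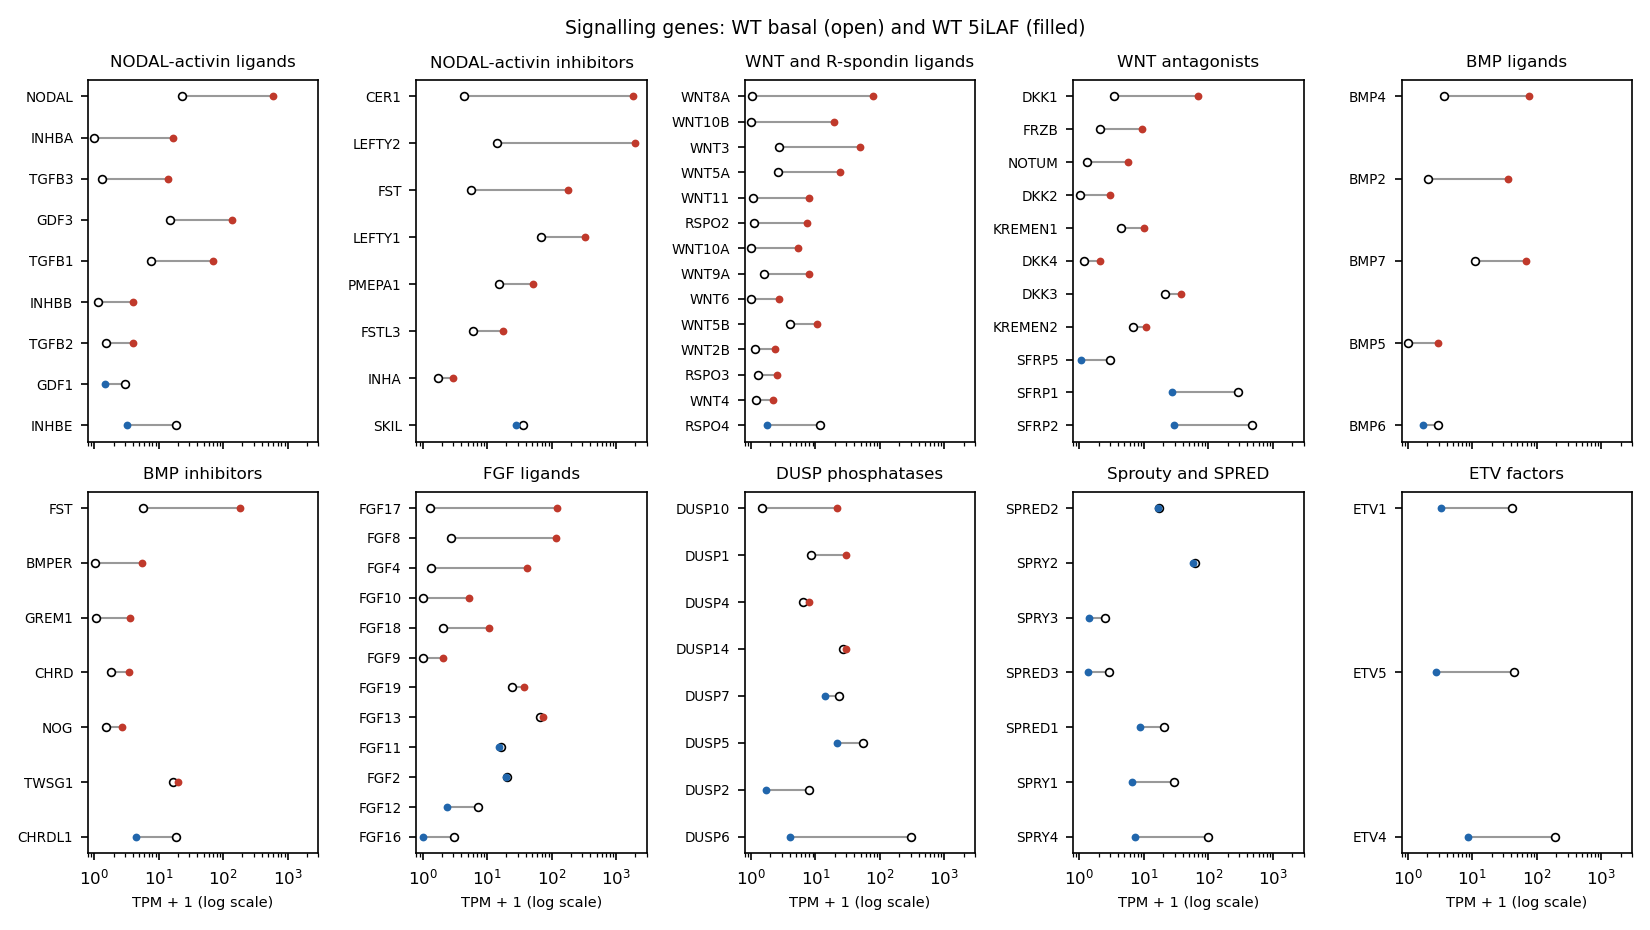
TPM + 1 on a log scale for tested members of 10 groups of signalling genes, with open circles for WT basal and filled circles for WT 5iLAF (red where above, blue where below WT basal). NODAL and its inhibitors CER1 and LEFTY2 lie far to the right in WT 5iLAF, while DUSP6, SPRY4 and the ETV factors lie to the left.

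WNT target genes were higher without exception among those that passed. The list held 27 genes, of which 25 entered, with 19 higher, 0 lower and a median of 2.27. SP5, a zinc finger factor induced directly by beta-catenin, stood at 109.6 TPM against a listed 0. T (brachyury) was at 118 against 0.21 TPM, CDX1 at 39.2 against 0.04 TPM, DKK1, a secreted WNT antagonist, at 67.7 against 2.42 TPM, LEF1, the DNA-binding partner of beta-catenin, at 16.2 against 0.34 TPM, and TNFRSF19 at 15.8 against 0.37 TPM. AXIN2, a feedback inhibitor of the pathway named after its values were seen, was at 74.6 against 9.56 TPM. The promoters of these targets were searched for the TCF/LEF motif, CTTTGAA or CTTTGAT on either strand, in the 250 bases before each RefSeq start. Of the 14 higher targets found in the RefSeq table of GRCh38.p14, 6 held it (SP5, DKK1, CDX2, T, SP8 and PRDM1), beside 7.24% of the 27305 genes in that table. SP5 is shown because it has the highest ratio of the list and 3 matches. Its 250 bases before the start, at chr2:170715087-170715336 of GRCh38.p14 on the plus strand, read 5′ to 3′ with the matches in capitals.
SP5: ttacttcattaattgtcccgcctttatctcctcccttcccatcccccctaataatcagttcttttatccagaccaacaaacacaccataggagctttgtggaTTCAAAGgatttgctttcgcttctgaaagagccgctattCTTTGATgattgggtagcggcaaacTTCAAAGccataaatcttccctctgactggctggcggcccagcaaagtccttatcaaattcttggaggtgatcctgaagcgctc
A match is a run of letters in a reference sequence, and binding was not measured. Here and for the motifs below only higher members were searched, so the share among the other members of the lists is not known.

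Ligands of the WNT family and their antagonists differed as well. Of 23 ligand and R-spondin genes 14 entered, with 12 higher and 1 lower. WNT8A stood at 76.1 against 0.04 TPM, WNT3, which is required for streak formation, at 48.4 against 1.72 TPM, WNT5A, a ligand of the beta-catenin-independent branch, at 23.2 against 1.63 TPM, and WNT10B at 18.3 TPM against a listed 0. WLS, the carrier that takes WNT proteins to the cell surface, stood at 328 against 3.09 TPM. RSPO4 was the lower ligand at 0.78 against 10.9 TPM. Of the 15 receptor genes 4 were higher and 4 lower: FZD10 at 12.6 against 0.81 TPM and ROR2 at 36.8 against 6.4 TPM on one side, FZD7 at 23.96 against 143 TPM and ROR1 at 10.7 against 38.2 TPM on the other. Antagonists summed to 194 against 792 TPM. That sum was carried by SFRP2 at 28.5 against 469.7 TPM and SFRP1 at 26.7 against 286 TPM, secreted frizzled-related proteins, whereas 5 of the 11 antagonists that entered were higher, among them DKK1 and FRZB at 8.37 against 1.08 TPM.

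BMP genes were mostly higher and ID genes mixed. BMP4 stood at 2.67 TPM in WT basal, 74.5 in WT 5iLAF, 20.3 in WT 2iLAF, 3.46 in B3GALT5-KO basal and 84.3 in B3GALT5-KO 2iLAF. WT basal and B3GALT5-KO basal were lowest and WT 2iLAF lay between them and the other 2. BMP2 was at 34.5 against 1.07 TPM and BMP7 at 66.1 against 10.2 TPM. Of 13 targets 9 were higher and 2 lower. HAND1, a factor of early mesoderm and extraembryonic tissue, stood at 43.5 TPM against a listed 0, MSX2 at 6.87 against 0.27 TPM and ID1 at 128 against 52.8 TPM, while ID3 was at 64.7 against 238 TPM and ID4 at 0.28 against 2.17 TPM. CHRDL1, a BMP antagonist, was the lower inhibitor at 3.47 against 17.6 TPM. The LIF pathway held 9 higher and 0 lower of 17 genes, with a median of 1.08. IL6ST, the shared receptor subunit gp130, stood at 31.9 against 2.96 TPM, IL6R at 14.1 against 2.06 TPM and LIFR at 11.7 against 4.47 TPM. Targets of STAT3 included SOCS3, its feedback inhibitor, at 55.6 against 19.7 TPM, KLF4 at 7.71 against 1.4 TPM and KLF5 at 9.74 against 1.19 TPM, and STAT3 itself was at 96.8 against 58.5 TPM, within the size rule.

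Primitive streak and mesoderm genes had one of the highest list medians, at 3.33. All 17 streak genes entered, with 15 higher and 0 lower, and their summed level was 1014 against 12.5 TPM. These include MIXL1, EOMES, GSC and LHX1 of the NODAL targets and SP5, T, CDX1 and CDX2 of the WNT targets, so the counts are not separate. T, the factor that marks the streak, stood at 0.21 TPM in WT basal, 118 in WT 5iLAF, 0.26 in WT 2iLAF, 0.09 in B3GALT5-KO basal and 84.5 in B3GALT5-KO 2iLAF. MIXL1, EOMES and GSC (values above) were joined by EVX1 at 4.93 TPM against a listed 0, MESP1 at 3.56 against 0.06 TPM and FOXA2 at 11.7 against 1.67 TPM. TBX6 at 3.8 against 2.16 TPM and MESP2 at 0.53 against 1.32 TPM did not pass. Among 22 mesoderm genes 17 entered, with 13 higher and 1 lower. APLNR, the apelin receptor of migrating mesoderm, stood at 130.3 against 0.55 TPM, PRRX1, a factor of limb and facial mesenchyme, at 14.4 TPM against a listed 0, and TWIST1 at 11.8 against 0.04 TPM. KDR, the VEGF receptor of vascular precursors, was the lower one at 6.95 against 27.99 TPM. Of the 29 endoderm genes 24 entered, 21 higher and 1 lower, with a median of 2.43. The endoderm list shares FOXA2, GATA4 and LHX1 with the streak genes and CER1 with the NODAL inhibitors. SOX17, a factor of endoderm and primordial germ cells, stood at 17.7 against 0.03 TPM, GATA4 at 44.2 against 0.05 TPM, GATA6 at 30.5 against 0.05 TPM and CXCR4, a chemokine receptor of definitive endoderm, at 31.9 against 1.39 TPM. FOXA3 was the lower member at 7.17 against 23.98 TPM. RNA of bulk cultures cannot tell fewer cells of a type from less RNA per cell, so these values do not say how many cells carried the transcripts.

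HOX genes, which specify position along the body axis, were near 0 in WT basal and reached 1 TPM at 18 of 39 genes in WT 5iLAF. Because they entered only through WT 5iLAF, their counts are a consequence of the filter, and the levels are given instead. The HOXB cluster summed to 47.71 against 0.34 TPM, HOXC to 11.54 against 0.09 and HOXD to 4.84 against 0.06. HOXB2 stood at 15.2 against 0.08 TPM and HOXB1 at 13.98 against 0.07 TPM, the lowest-numbered members of their cluster. HOXB6 was at 4.61 TPM against a listed 0 and HOXC6 at 4.6 TPM against a listed 0. In the 3 other libraries HOXB2 was listed at 0 in WT 2iLAF and B3GALT5-KO basal and at 15.4 TPM in B3GALT5-KO 2iLAF.

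**Figure D3:**
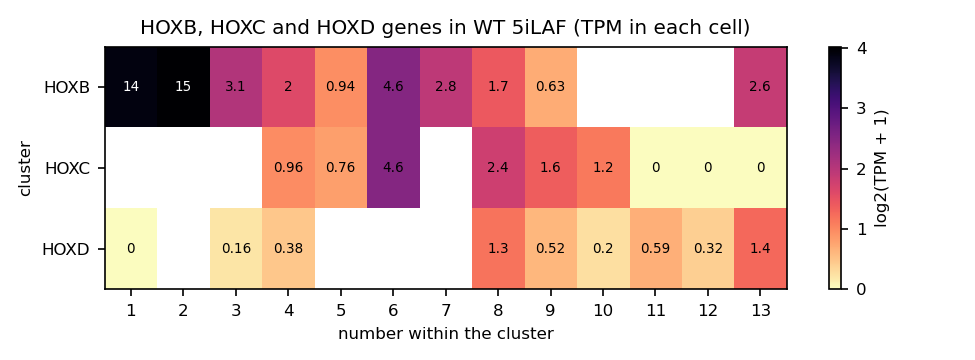
TPM of the HOXB, HOXC and HOXD genes in WT 5iLAF, by cluster (rows) and number within the cluster (columns), coloured by log2(TPM + 1), with white where the table holds no such gene. HOXB1 at 13.98 and HOXB2 at 15.2 TPM are the darkest cells, and the other genes of these clusters stay under 5 TPM.

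Muscle genes of the heart and of smooth muscle that entered were mostly higher. Of 27 cardiac and sarcomere genes 16 entered, with 12 higher and 0 lower. Their median was 2.87, and that of the list without the filter was 0.81. NPPB, the natriuretic peptide of ventricle and of stretched cells, had the highest ratio of all genes ranked, at 840.4 TPM against a listed 0, and NPPA, the atrial peptide, stood at 19.9 TPM against a listed 0. MYL7 and MYL4, atrial myosin light chains, stood at 428 against 3.14 TPM and 287 against 0.49 TPM, and ACTC1, cardiac actin, at 328 against 5.6 TPM. Of 22 smooth muscle genes 21 entered, with 14 higher and 1 lower. ACTG2 and ACTA2, the smooth muscle actins, stood at 494 against 1.46 TPM and 192 against 0.81 TPM. TAGLN (transgelin) was at 1686 against 68.4 TPM, CNN1 (calponin) at 267 against 18.5 TPM and MYL9, a regulatory light chain, at 1068 against 133 TPM. MYLK, the kinase of that light chain, was lower at 2.67 against 8.56 TPM. MYOCD, the cofactor that drives this programme with SRF, reached 1.84 against 0.22 TPM, and SRF itself stood at 98.7 against 60.8 TPM. Targets of YAP, the coactivator restrained by the Hippo pathway, held 6 higher and 0 lower of 10 that entered, with ANKRD1 at 112 against 0.23 TPM, CYR61 at 232 against 29.9 TPM and CTGF at 116 against 30.1 TPM. CTGF was at 147 TPM in B3GALT5-KO basal and 117 in WT 2iLAF, so WT basal was the library with the lowest CTGF.

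The CArG box, the letters bound by SRF, was searched in the same windows on both strands. Of 24 higher genes of the cardiac and smooth muscle lists, 17 were found in the RefSeq table. The 6 with a CArG box were MYL7, ACTC1, ACTA1, ACTG2, FLNA and TGFB1I1, beside 1.44% of the 27305 genes. ACTG2 is shown because it has the highest ratio of the smooth muscle list and 2 boxes, in capitals, in its 250 bases at chr2:73892758-73893007 of GRCh38.p14 on the plus strand, 5′ to 3′.
ACTG2: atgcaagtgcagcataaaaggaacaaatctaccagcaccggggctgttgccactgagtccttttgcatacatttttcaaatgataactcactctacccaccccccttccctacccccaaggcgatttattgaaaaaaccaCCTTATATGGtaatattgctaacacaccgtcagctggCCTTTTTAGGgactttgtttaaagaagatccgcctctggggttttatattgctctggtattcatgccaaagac

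Matrix glycoprotein and matrix enzyme genes were mostly higher, and epithelial junction genes held more lower than higher members. Of the 10 fibrillar collagen genes, 5 were higher and 0 lower. COL3A1 stood at 0.3 TPM in WT basal, 258 in WT 5iLAF, 0.19 in WT 2iLAF, 0.08 in B3GALT5-KO basal and 1871 in B3GALT5-KO 2iLAF. It was near 0 in 3 libraries and highest in B3GALT5-KO 2iLAF. COL1A1 stood at 827 against 19.4 TPM, COL1A2 at 708 against 43.7 TPM, COL5A1 at 173 against 8.15 TPM and COL5A2 at 223 against 24.3 TPM. Basement membrane collagens COL4A1 and COL4A2 were at 291 against 46.95 TPM and 271 against 58.01 TPM, and 5 of the 6 that entered were higher. COL9A1 at 0.32 against 21.4 TPM, COL14A1 at 0.4 against 11.6 TPM and COL8A2 at 0.42 against 3.42 TPM were lower. Among 37 matrix glycoproteins and matrix enzymes 33 entered, with 23 higher and 1 lower. IGFBP7 stood at 253 against 0.84 TPM, TNC (tenascin C) at 97.6 against 1.84 TPM, LOX, which cross-links collagen, at 43.8 against 0.51 TPM, SPP1 (osteopontin) at 723 against 33.04 TPM, FN1 (fibronectin) at 505 against 44.1 TPM and SPARC at 899.5 against 194 TPM. Integrins, the receptors for this matrix, were split with 5 higher and 4 lower of 16. ITGA5, the fibronectin receptor subunit, stood at 146 against 31.9 TPM, ITGAV at 48.3 against 20.6 TPM, ITGA11 at 12.2 against 0.21 TPM and ITGB3 at 6.53 against 0.14 TPM, while ITGA7, a laminin receptor subunit, was at 7.05 against 34.7 TPM. ITGB1, their common partner, was at 438 against 333 TPM.

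Of 9 genes of epithelial-mesenchymal transition, 7 were higher and 0 lower, at a median of 3.58. They hold VIM (values above) and transcription factors. Of these factors SNAI1, SNAI2, TWIST1, TWIST2, PRRX1 and FOXC2 are also on the mesoderm list, so the counts are not separate. ZEB2 stood at 20.2 against 0.06 TPM, ZEB1 at 8.21 against 0.36 TPM and SNAI2 at 16.6 against 0.47 TPM, all repressors of E-cadherin, while SNAI1 was within the size rule at 17.5 against 15.5 TPM. CDH1, E-cadherin, was at 31.1 against 115 TPM and CDH2, N-cadherin, at 186 against 36.1 TPM, so the more abundant of the pair was CDH1 in WT basal and CDH2 in WT 5iLAF. The order in WT 2iLAF was that of WT basal, with CDH1 at 233 and CDH2 at 72.5 TPM. Of 49 epithelial junction and polarity genes, 45 entered, with 21 lower and 4 higher and a median of -0.82. MAL2, an apical transport protein, stood at 1.28 against 107 TPM, ST14 (matriptase) at 0.69 against 35.05 TPM, MARVELD3 at 0.54 against 24.01 TPM, CLDN4 at 1.94 against 29.7 TPM and CLDN7, tight junction claudins, at 12.9 against 127 TPM. CLDN6, the most abundant claudin, was within the size rule at 566 against 912 TPM. The higher members were GRHL3 at 11.97 against 0.12 TPM, CLDN11 at 6.47 against 2.45 TPM and the desmosomal genes PKP2 at 45.3 against 12.1 TPM and DSP at 76.7 against 35.3 TPM. Keratins of simple epithelia went the other way from the claudins, KRT8 at 2163 against 531 TPM, KRT18 at 1219.8 against 641 TPM and KRT19 at 232 against 101 TPM, although KRT18 did not reach the size rule.

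The matrix and mesenchyme genes overlap with markers of fibroblasts, and these are given as a whole list. Of 17 fibroblast markers 16 entered, with 12 higher and 1 lower, and their summed level was 2329 TPM in WT 5iLAF, 996 in WT basal, 446 in WT 2iLAF, 1070 in B3GALT5-KO basal and 6209 in B3GALT5-KO 2iLAF. THY1 gave most of the sum in WT basal. PDGFRA stood at 14.4 against 0.6 TPM, LUM (lumican) at 17.99 against 0.16 TPM, DPT (dermatopontin) at 1.56 TPM against a listed 0 and FAP at 1.34 TPM against a listed 0. Their part in the matrix and muscle results was not tested.

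**Figure D4:**
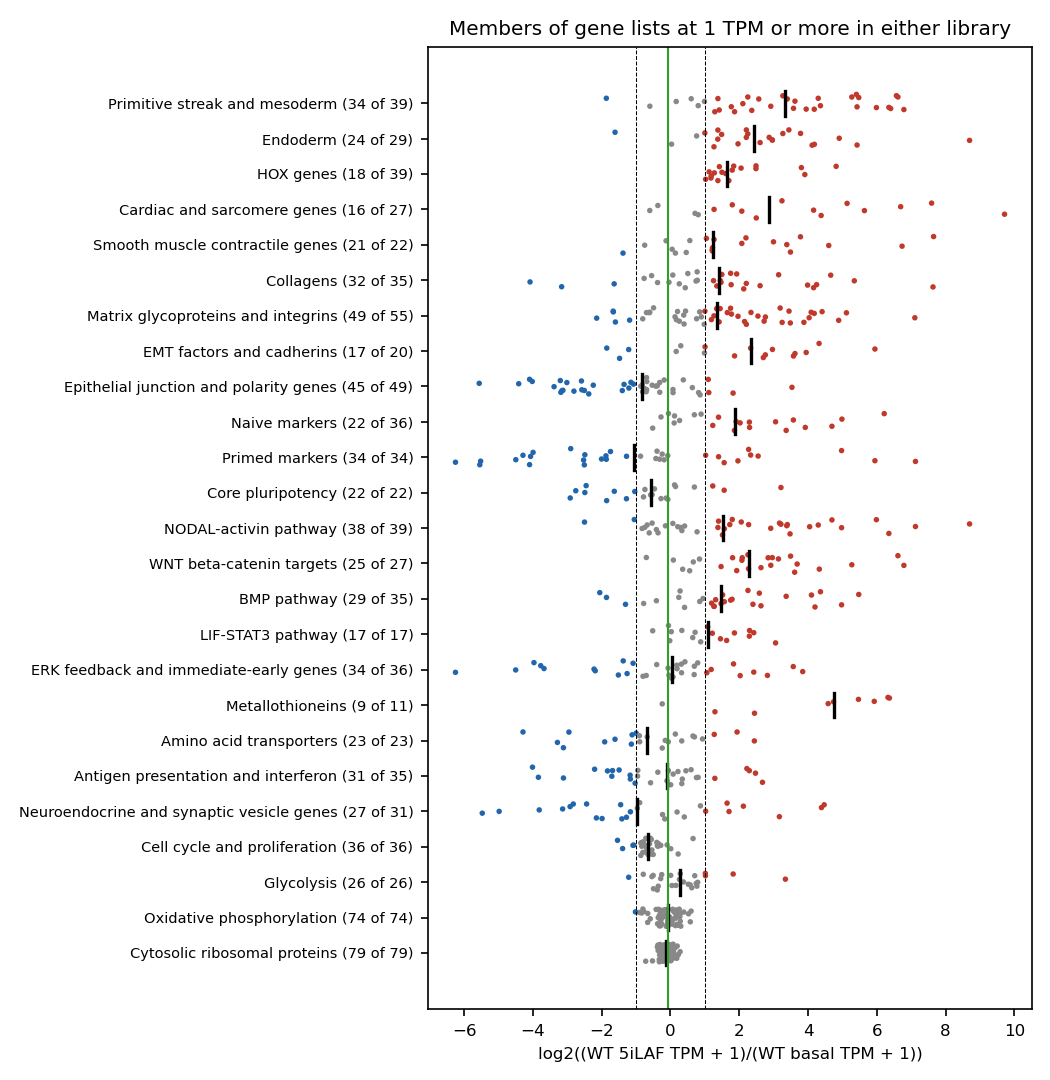
Log2 ratio of TPM + 1, WT 5iLAF over WT basal, for each tested member of 25 gene lists, with the number tested of the number in the table beside each name. Black bars are list medians, the green line is the median of all tested genes (-0.08), and dashed lines are the size rule. Tested members of the streak, cardiac and metallothionein lists lie mostly to the right, and ribosomal and respiratory genes around 0. Genes under 1 TPM in both libraries are not plotted, and with them the cardiac median falls from 2.87 to 0.81.

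Genes of other lineages were less uniform. Of 26 trophoblast genes, 11 entered, with 7 higher and 1 lower. TFAP2C, also a naive marker (values above), had the highest ratio of the list. It and HLA-G (values below) were above 10 TPM in WT 5iLAF. CDX2 stood at 7.99 against 0.19 TPM, TFAP2A at 3.12 against 0.06 TPM, GATA2 at 2.49 against 0.22 TPM and GATA3 at 2.23 against 0.34 TPM, these 4 each under 10 TPM. ELF5, CGA and GCM1, named after their values were seen, were listed at 0, 0 and 0.09 TPM in WT 5iLAF. Amnion genes were 6 higher and 2 lower of 11 that entered, the lower ones GABRP at 0.62 against 4.65 TPM and ID4. Of 10 germ cell genes that entered 4 were higher and 3 lower. The higher ones were PRDM1 at 7.1 against 0.04 TPM, with SOX17, CXCR4 and TFAP2C (values above). PRDM1, SOX17 and CXCR4 are also on the endoderm list and TFAP2C on the trophoblast and naive lists, so the counts are not separate. KIT, the stem cell factor receptor, was a lower member at 2.47 against 14.6 TPM. Neuroectoderm genes were 6 higher and 7 lower of 16. OTX2, a forebrain and epiblast factor, stood at 40.6 against 9.67 TPM with 421 TPM in WT 2iLAF, NES (nestin) at 409 against 103 TPM, POU3F1 at 1.81 against 36.2 TPM and SIX6 at a listed 0 against 17.2 TPM.

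Neuroendocrine and synaptic vesicle genes held 13 lower and 7 higher of 27, with a median of -0.97. CHGA (chromogranin A, a granule protein) stood at 1.43 against 107 TPM, VSNL1, a neuronal calcium sensor, at 2.73 against 117 TPM, NPTX2 at 0.31 against 17.5 TPM, STMN3 at 7.56 against 74.3 TPM and SCG3 at 4.9 against 40.9 TPM. The higher members were led by STMN2 at 49.97 against 1.3 TPM, PCSK1, a prohormone convertase, at 31.5 against 0.55 TPM, GAP43, a growth cone protein, at 119 against 12.4 TPM, and GAL (galanin) at 299.5 against 68.2 TPM. Among 11 neuron markers 10 entered, 3 higher and 4 lower. TUBB3 stood at 603 against 217 TPM, NEFL at 55.9 against 11.3 TPM, SYN1 at 1.81 against 7.84 TPM and RBFOX3 at a listed 0 against 18.3 TPM. The neuron list summed to 733 against 312 TPM, mostly TUBB3, and its part in the neuroendocrine values was not tested.

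Of 10 DNA methylation genes 1 was higher and 1 lower. DNMT3L was the higher and DNMT3B the lower one (values above), and DNMT3A was at 69.5 against 82.4 TPM, DNMT1, the maintenance enzyme, at 60.7 against 103 TPM and UHRF1, which recruits it, at 50 against 51.8 TPM. The TET genes, whose products oxidise methylcytosine, were within the size rule, TET1 at 21.02 against 22.1 TPM. Polycomb genes were mostly within it too, with 3 higher and 4 lower of 27. PHC1 stood at 76.6 against 582 TPM, CBX2 at 40.3 against 98.8 TPM, JARID2 at 48.1 against 118 TPM and CBX7 at 2.51 against 7.12 TPM. BMI1 at 15.4 against 1.37 TPM and PHC2 at 44.4 against 18.8 TPM were among the higher ones. EZH2, the methyltransferase, was at 50.9 against 48.7 TPM and was named after its values were seen. Imprinted genes held 5 higher of 12 maternally expressed ones that entered. MEG3 stood at 138 against 0.01 TPM, H19 at 253 against 2.77 TPM with 2762 TPM in B3GALT5-KO 2iLAF, and CDKN1C at 47.5 against 12.2 TPM. Of 16 paternally expressed genes that entered 2 were higher, IGF2 at 54.9 against 1.23 TPM and NNAT at 19.4 against 9.16 TPM, and SNRPN was at 554 against 608 TPM.

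Proliferation genes lay below the median of all genes, mostly within the size rule. Of 36, 4 were lower and 0 higher, with a median of -0.66, and 33 had a ratio below 0. TOP2A, a topoisomerase of mitosis, stood at 91.7 against 269 TPM, BUB1B at 66.7 against 177 TPM, AURKB at 115 against 246 TPM and MCM3 at 171 against 360.1 TPM. MKI67, named after its values were seen, was at 30.5 against 54.9 TPM, a log2 ratio of -0.83. The list of cell cycle inhibitors and D cyclins held 7 higher and 0 lower of 13, with a median of 1.11. CDKN2A, an inhibitor of cyclin-dependent kinases, stood at 12.6 against 0.18 TPM, CDKN2B at 11.9 TPM against a listed 0 and CDKN1A (p21) at 33.03 against 5.38 TPM. CDKN1B at 28.6 against 28.6 TPM, CCND1 at 101 against 88.4 TPM and RB1 at 15.9 against 15.9 TPM lay within the size rule. Of 27 p53 targets 5 were higher and 1 lower. BTG2, an antiproliferative gene, stood at 49.8 against 2.14 TPM and PHLDA3 at 46.4 against 12.8 TPM, while PMAIP1 (NOXA) was at 73.8 against 184 TPM.

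Housekeeping metabolism differed little. None of 79 cytosolic ribosomal protein genes passed the size rule, with a median of -0.12. Of 74 oxidative phosphorylation genes 1 was lower, COX7C at 838 against 1699.7 TPM, and the median was -0.08. Among 26 glycolysis genes 4 were higher and 1 lower. SLC16A3, the lactate exporter, stood at 38.05 against 2.85 TPM, PDK1, which closes entry of pyruvate into mitochondria, at 89.97 against 24.7 TPM, and ALDOC at 33.5 against 79.1 TPM. Hypoxia targets included BNIP3 at 192 against 42.5 TPM and, lower, AK4 at 45.05 against 111 TPM.

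ATF4 targets, which include enzymes of serine synthesis, and amino acid transporters held more lower than higher members, and many lay within the size rule. Among 16 ATF4 targets 5 were lower and 2 higher: PHGDH, the entry enzyme of serine synthesis, stood at 258 against 759 TPM, PSAT1 at 203 against 492 TPM, ASNS, asparagine synthetase, at 82.6 against 238 TPM, CHAC1 at 23.2 against 54.8 TPM and TRIB3 at 8.87 against 22.3 TPM. DDIT3 (CHOP) was higher at 22.9 against 8.32 TPM, and ATF4 itself was at 719.5 against 903 TPM. None of 16 chaperones of the endoplasmic reticulum passed, with HSPA5 at 634 against 464 TPM. Of 23 amino acid transporters 9 were lower and 3 higher. SLC7A8 stood at 13.7 against 113 TPM, SLC38A5 at 3.17 against 39.8 TPM and SLC38A2 at 67.8 against 209.6 TPM, whereas SLC7A5, the large neutral amino acid carrier, was at 544 against 225 TPM. Of 16 heat shock genes 15 entered, with 3 higher and 1 lower, a median of -0.48 and 11 ratios below 0. The higher ones were the small heat shock proteins HSPB1 at 955 against 258 TPM, HSPB8 at 58.98 against 8.05 TPM and CRYAB at 15.5 against 2.6 TPM. The lower one was HSPA1B at 49.1 against 115 TPM, whose near-identical copy HSPA1A was at 54.5 against 79.5 TPM, so the division of reads between them is uncertain. HSP90AA1 at 851 against 1522 TPM and HSPD1 at 775 against 1365 TPM lay within the size rule.

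Metallothioneins, small proteins that bind zinc and copper, had the highest list median, at 4.74. Of 11 genes of the list 9 entered, 8 of them higher, and SLC30A1, a zinc exporter on the same list, was the other at 11.7 against 14.01 TPM. MT2A stood at 14.4 TPM in WT basal, 935 in WT 5iLAF, 217 in WT 2iLAF, 574 in B3GALT5-KO basal and 911 in B3GALT5-KO 2iLAF. WT basal was the lowest of the 5 libraries, and B3GALT5-KO basal lay above WT 2iLAF, so the libraries did not divide by medium here. MT1G stood at 508 against 10.5 TPM, MT1E at 407 against 4.09 TPM, MT1X at 429.96 against 78.2 TPM, MT1F at 312 against 10.7 TPM, MT1H at 306 against 2.72 TPM and MT1M at 23.02 TPM against a listed 0. Reads of these near-identical genes are shared out by estimate, so single members are uncertain. The list summed to 2935 against 135 TPM. The core of the metal response element, TGCACNC or TGCGCNC on either strand, was searched in the same windows. All 3 of the higher metallothioneins found in the RefSeq table (MT1H, MT1X and MT2A) held it, beside 28.5% of the 27305 genes. MT2A is shown as the most abundant of them, with 7 matches in capitals in its 250 bases at chr16:56608334-56608583 of GRCh38.p14 on the plus strand, 5′ to 3′.
MT2A: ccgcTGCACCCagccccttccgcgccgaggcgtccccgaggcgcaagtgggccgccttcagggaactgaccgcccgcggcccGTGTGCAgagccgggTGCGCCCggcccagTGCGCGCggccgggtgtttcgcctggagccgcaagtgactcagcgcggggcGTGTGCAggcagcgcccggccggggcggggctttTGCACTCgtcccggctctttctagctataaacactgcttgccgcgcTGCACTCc

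Antigen presentation genes were mostly lower. Of 17 genes 16 entered, with 10 lower and 2 higher. HLA-B, a class I heavy chain, stood at 13.8 against 47.2 TPM, PSMB8, an immunoproteasome subunit, at 0.79 against 27.9 TPM, TAP2, a peptide transporter, at 1.15 against 17.6 TPM, and CD74, the class II invariant chain, at 3.68 against 66.1 TPM. HLA-F at 41.95 against 6.74 TPM and HLA-G at 12.9 against 1.98 TPM were higher, and B2M was at 145 against 115 TPM. HLA genes resemble each other, and their division is an estimate. Interferon-stimulated genes did not follow, with 3 higher and 1 lower of 15. IFITM1, which restricts virus entry and is high in pluripotent cells, stood at 3325 against 678 TPM, IFITM3 at 1819.6 against 743 TPM and BST2 at 383 against 59.1 TPM, while MX1 was at 0.36 against 2.07 TPM. Surface markers were divided 9 to 9 of 27. CD44 stood at 28.2 against 2.12 TPM, MCAM at 73.3 against 16.2 TPM and SUSD2, used to sort naive cells, at 14.8 against 3.22 TPM. B3GAT1 was at 2.43 against 22.8 TPM, PROM1 at 14.2 against 63.6 TPM and EPCAM at 118 against 302 TPM.

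B3GALT5, the galactosyltransferase knocked out elsewhere in the series, makes the globo-series antigen SSEA-3. It stood at 9.31 TPM in WT basal, 2.08 in WT 5iLAF, 5.13 in WT 2iLAF, 5.98 in B3GALT5-KO basal and 1.17 in B3GALT5-KO 2iLAF. The WT 5iLAF value lay below both basal values and above B3GALT5-KO 2iLAF. Of the 8 globo-series genes 3 were lower and 2 higher. A4GALT and ST3GAL1 stood at 22.7 against 7.57 TPM and 10.5 against 3.37 TPM, and GBGT1 and FUT1 at 5.39 against 14.6 TPM and 1.26 against 5.97 TPM. Of 8 ganglio-series genes that entered 4 were lower and 1 higher, ST3GAL5, the GM3 synthase, at 6.57 against 2.52 TPM. In the lacto series B3GALT1 at 0.22 against 5.08 TPM and FUT9 at 0.04 against 2.17 TPM were the lower ones of 11. UGCG, the entry enzyme of the whole pathway, was at 30.01 against 19.9 TPM.

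Retinoic acid genes held 6 higher and 1 lower of 14. CYP26A1, which degrades retinoic acid, stood at 66.02 against 2.2 TPM with 325 TPM in WT 2iLAF, CRABP2, its carrier protein, at 470.01 against 101 TPM, and RARG, a receptor, at 9.96 against 44.9 TPM. In the IGF system IGFBP5 stood at 60.2 against 0.51 TPM and IGFBP3 at 16.6 against 2.45 TPM, while IGFBP4 was at 22.7 against 173 TPM and IGFBP2 at 454 against 486 TPM. The SOX family was 4 higher and 5 lower of 14, with SOX15 at 41.4 against 5.28 TPM, SOX18 at 5.11 TPM against a listed 0, SOX4 at 57.8 against 125 TPM and SOX8 at 0.71 against 9.52 TPM.

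Red cell transcripts were mostly lower in WT 5iLAF than in WT basal, and their order over the 5 libraries did not follow the medium. HBB, adult beta-globin, had the lowest ratio of all genes ranked, and stood at 140.2 TPM in WT basal, 0.21 in WT 5iLAF, 0 in WT 2iLAF, 0.13 in B3GALT5-KO basal and 112 in B3GALT5-KO 2iLAF. Adult and fetal globin genes summed to 222 TPM in WT basal, 12.1 in WT 5iLAF, 0.17 in WT 2iLAF, 3.12 in B3GALT5-KO basal and 221 in B3GALT5-KO 2iLAF, so WT basal and B3GALT5-KO 2iLAF stood apart. Alpha and gamma globins are near-identical pairs and uncertain as single genes. Of 17 erythroid markers 11 entered, with 10 lower and 1 higher, GYPB at 6.18 against 0.36 TPM. The list summed to 19.1 against 238 TPM. Granulocyte markers were nearly absent, with 1 of 19 at 1 TPM or more, MMP9 at 23.7 against 16.2 TPM, and with ELANE and S100A8 listed at 0 in both libraries. Of 14 lymphocyte and macrophage markers 7 entered, 3 higher and 0 lower, with LYZ at 8.94 against 1.46 TPM and PTPRC (CD45) at 1.57 against 0.04 TPM. Of 12 endothelial markers 6 entered, with 2 higher and 3 lower, EGFL7 at 18.6 against 57.2 TPM and TEK at 5.48 against 1.93 TPM among them.

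Several of the extreme genes belong to none of the lists. At the high end, IL32, a cytokine-like gene, stood at 166 against 1.11 TPM. At the low end, LCK, a SRC-family kinase best known in T cells, stood at 0.93 against 103 TPM with 21.9 TPM in WT 2iLAF and 73.2 in B3GALT5-KO basal. D21S2088E was listed at 0 in WT 5iLAF and both 2iLAF libraries and stood at 80.4 TPM in WT basal and 59.6 in B3GALT5-KO basal. TMEM59L stood at 0.15 against 44.9 TPM, GPR176, an orphan receptor, at 1.98 against 87.1 TPM, JPH4, a junctophilin, at 0.06 against 25.9 TPM, ZDHHC22, a palmitoyltransferase, at 1.37 against 54.6 TPM, and IGSF21 at 0.38 against 27.8 TPM. FOXD3-AS1, which lies antisense to FOXD3, was at 8.45 against 220.03 TPM. FOXD3 was lower too, and the strand setting of the quantification is not given in the sources used here, so the pair may not be fully separable. LINC00599 stood at 0.16 against 26.2 TPM and TCEAL2 at 0.23 against 24.3 TPM.

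**Figure D5:**
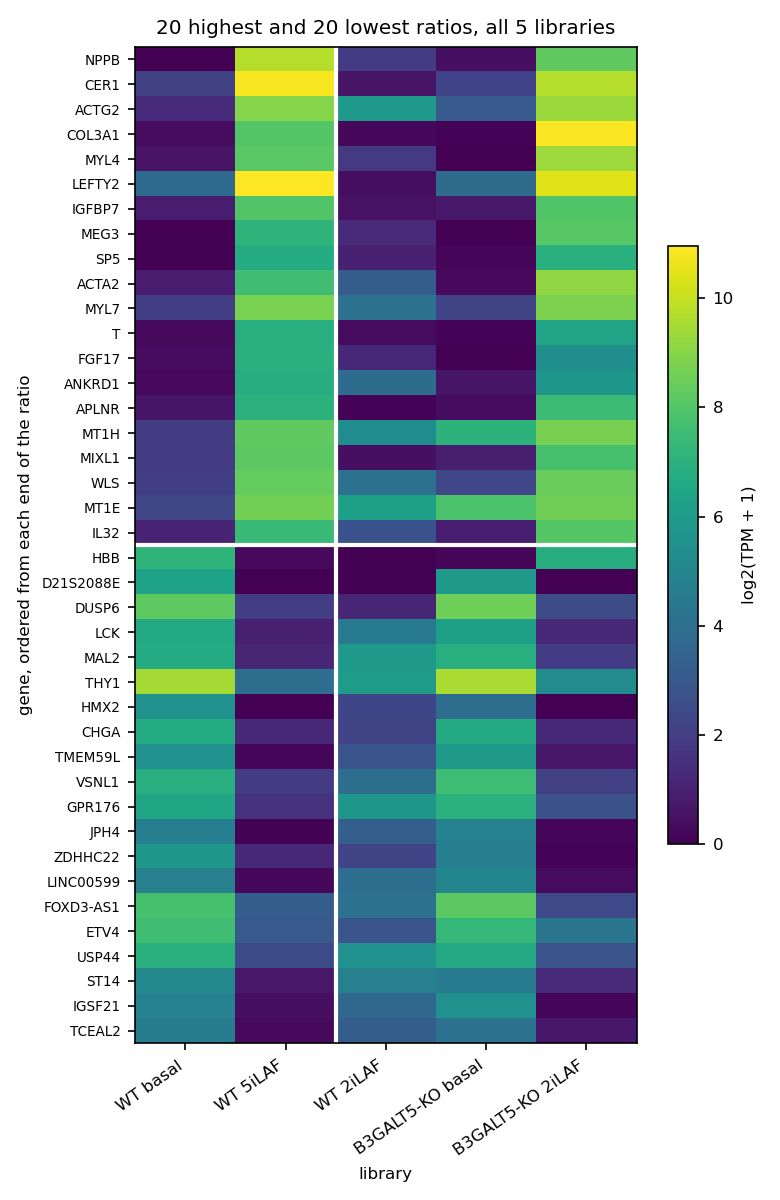
Log2(TPM + 1) of the 20 genes with the highest and the 20 with the lowest log2 ratio of WT 5iLAF over WT basal, among genes at 10 TPM or more in either, across all 5 libraries (columns). White lines part the high from the low genes and the compared libraries from the others, and the 2 libraries compared were used to choose the genes, so their contrast is by construction.

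Differences were spread over the genome. Median log2 ratios of autosomes lay between -0.14 and -0.01, and that of X was 0.09. Of the 14648 tested genes placed on a chromosome by RefSeq symbol, those on chromosome 21 were called most often, 18.8% higher and 15.4% lower, while chromosome 19 had 7.03% higher. Small nucleolar RNA genes were called often, lower in 38.2% and higher in 16.4% of 55. The libraries held poly(A)-selected RNA, and the effect of that selection on these genes was not tested. Transcribed pseudogenes were higher in 15.4% and lower in 5.9% of 305.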

How the data were processed

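Poly(A)-selected RNA was sequenced after a stranded TruSeq library preparation, per the labels' protocols. The submitters' processing notes name Trimmomatic 0.39, Bowtie2 2.3.4.1, RSEM 1.2.28 and genome build hg19. Which annotation and which strand option RSEM used is not given in the sources used here. Per the file headers, the authors deposited TPM and FPKM values for 5 libraries in 1 table, which also has 18 empty columns. RSEM shares out reads that fit several genes, so near-identical genes are uncertain. The table holds no counts, so depth is unknown and no counting interval is given.

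Genes at 1 TPM or more in WT 5iLAF or WT basal were compared as log2 ratios with a pseudocount of 1, which understates ratios of low genes, and called at 1 in size. No test was possible with 1 library per group. Named genes are B3GALT5, those with the 20 highest and 20 lowest ratios among genes at 10 TPM or more, the 10 most abundant genes, and from each of 55 lists up to 6 higher and 6 lower members with the largest ratios, 4 of the most abundant members and, for a list or role of up to 20 genes, every member. A few genes that the rule names are not reported here. Members and lists were chosen with earlier results of these data known, and 4 lists were added after values were seen. Of the listed symbols 4 were not matched. Promoters were taken by symbol from RefSeq (GRCh38.p14), every start of a gene counted. Alternatives were other pseudocounts, filters, scalings and size rules, and FPKM. Tools were pandas 2.3.3, numpy 2.4.6 and matplotlib 3.10.9 under Python 3.11.15.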

Additional observations from a re-analysis of the deposited data

How the results depend on the processing

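With a pseudocount of 5 the counts of higher and lower genes were 922 and 795, and with size rules of 1.5-fold and 4-fold they were 2844 and 3399, and 615 and 476. By construction a larger pseudocount shrinks ratios of low genes. The counts stayed within 1.5 times those reported under a pseudocount of 0.1 (2047 higher and 2250 lower) and a filter of 5 TPM (1252 and 1234). The same held for median-ratio scaling (1819 and 1671), trimmed-mean scaling (1815 and 1671) and FPKM (1344 and 1314). Without the filter they were 1694 and 1793 by construction, because a gene under 1 TPM in both libraries cannot reach the size rule. Scaling multiplied WT 5iLAF by 1.056 or 1.055 and moved the median of all tested genes from -0.08 to -0.01. The next counts cover B3GALT5, the ranked and most abundant genes and all tested list members, which is more than the genes named in the text. Of the 566 of these past the size rule, 399 stayed past it with a pseudocount of 5, 493 with FPKM and 558 with either scaling. That 0 changed sign follows by construction and is no check on direction. A pseudocount cannot reverse a ratio, and these scaling factors are too small to reverse one past the size rule. FPKM was nearly the same multiple of TPM in both libraries, so it acted as another pseudocount. List medians changed sign without the filter for neuroectoderm genes and protocadherins, and with a 5 TPM filter for polycomb, glycosphingolipid and histone genes. No paired analysis was possible because each group holds 1 library. No replicate could be left out for the same reason, and unknown depth leaves the error of low genes unmeasured.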

Other observations

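Some gene families not listed as a whole above were taken up after their values were seen. SYT1, SYT4 and SYT11 are also on the neuroendocrine list, and HLA-DRA and HLA-DRB1 among the antigen presentation genes. S100A4 is also a fibroblast marker, and S100A8, S100A9 and S100A12 are granulocyte markers, so the counts are not separate. Annexins, which bind membranes in the presence of calcium, held 6 higher and 1 lower of 10 genes that entered, with a summed level of 3210 TPM in WT 5iLAF and 739 in WT basal. ANXA2 stood at 1707 against 157 TPM, ANXA1 at 116 against 4.2 TPM, ANXA3 at 196 against 15.1 TPM and ANXA6 at 378 against 95.1 TPM. Their partners among the S100 calcium-binding proteins held 6 higher and 0 lower of 10. S100A10, which binds ANXA2, stood at 617 against 66.4 TPM, S100A11 at 1670.03 against 542 TPM and S100A6 at 229 against 17.5 TPM, and the family summed to 2821 against 802 TPM. Synaptotagmins, the calcium sensors of vesicle release, had 9 lower and 0 higher of 14, with SYT1 at 3.77 against 20.2 TPM, SYT13 at 1.29 against 11.5 TPM and SYT7 at 1.27 against 10.3 TPM. SYT6 at 14.6 against 11.4 TPM and SYT17 at 10.4 against 5.54 TPM were the members above 0.

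HLA class II genes held 7 lower and 1 higher of 10. HLA-DOA stood at 0.62 against 21.7 TPM and HLA-DPB1 at 1.24 against 10.3 TPM, while HLA-DQB1 was higher at 62.9 against 23.6 TPM. Replication-dependent histone genes, whose transcripts mostly lack the poly(A) tail used for selection, held 4 higher and 3 lower of 18 that entered, with HIST1H2BE at 44.3 against 1.74 TPM. Of 9 protocadherins outside the clusters 6 entered, 4 of them higher and 1 lower. PCDH10 stood at 9.37 against 0.7 TPM, PCDH7 at 10.3 against 1 TPM and PCDH1 at 43.02 against 116 TPM. Of 53 clustered protocadherins 25 entered, with 2 higher and 3 lower, PCDHGC3 at 19.99 against 4.66 TPM being the member with the highest ratio.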
